A study of Mus musculus with 86 samples.

Results

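The 8 genes described here, Srebf2, Insig1, Hmgcs1, Idi1, Fdft1, Sqle, Lss and Cyp51, encode the transcription factor SREBP2, its feedback inhibitor and 6 enzymes of cholesterol synthesis. They were picked by name for their place in this pathway, and are 8 of the 52631 genes with an annotated transcript in all 36 mouse libraries of a series of 86 libraries. All 8 passed the filter on low counts in each experiment.

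The study asked how the RNA-binding protein TDP-43 affects where RNAs lie in neuronal cells. CAD cells, a mouse line from the central nervous system with catecholaminergic properties, and N2A cells, a mouse neuroblastoma line, were grown on porous membranes, scraped into soma and neurite fractions, and their polyA RNA was sequenced. There were 3 libraries for each fraction of each genotype, which makes 12 libraries in each of 3 experiments. In the first 2 experiments, both genotypes came from single-cell clones of CAD or N2A cells whose endogenous Tardbp alleles, which encode TDP-43, had been inactivated with CRISPR, and which carried a single-copy HA-tagged TDP-43 transgene that doxycycline turns off. Wild-type libraries came from such cells without doxycycline, and knockout libraries from cells given doxycycline for 48 h (2 µg/mL in the sample labels, a lower dose in the study's methods). The loss of TDP-43 and the presence of doxycycline therefore cannot be told apart, nor can a line and its clone. In the third experiment, CAD cells that kept their endogenous Tardbp carried a single-copy transgene, induced with doxycycline in both groups, of HA-tagged wild-type TDP-43 or of the Q331K form, which is linked to amyotrophic lateral sclerosis. These groups are called wild-type transgene and Q331K. All cells of the first 2 experiments were held in medium without serum, both genotypes alike, while neurites grew. For the third experiment the methods cite the same fractionation protocol, without restating the medium. Doxycycline was given for longer in that experiment, per the methods.

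SREBP2 is made as a membrane protein of the endoplasmic reticulum, where the sterol sensor Scap holds it. When sterols are plentiful, INSIG proteins keep the complex in place. When sterols run low, the complex moves to the Golgi, proteases release the SREBP2 fragment, and the fragment enters the nucleus and binds sterol regulatory elements in the promoters of its targets, often beside sites for NF-Y and Sp1. Its targets include nearly every enzyme of the pathway, Insig1 and Srebf2 itself, so the levels of these RNAs are widely read as a gauge of SREBP2 activity. Neurons need cholesterol for growing membranes and synapses, and make part of it themselves.

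RefSeq promoter windows of 300 bases (250 before to 50 after the start, GRCm38.p6) were at hand for 6 of the 8 genes, all but Fdft1 and Sqle. They are shown for the letters through which SREBP2 and its partners are known to bind. The core TCACNCCAC, searched on both strands, was present without a mismatch in 1 of the 6 windows, that of Hmgcs1, and in 1.24% of 32851 promoters of the same length. With at most 1 mismatch at a named base it was present in 4 of the 6, against 24.2% of all promoters. In the following windows, written 5′ to 3′ on the strand of the gene, capitals mark the core or its nearest match, which for Insig1 reads on the opposite strand.
Hmgcs1, chr13:119690204-119690233, plus strand, no mismatch: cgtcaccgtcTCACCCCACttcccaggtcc
Srebf2, chr15:82147097-82147126, plus strand, 1 mismatch: tgacgcaccaTCACCCCATgagccgcttcg
Insig1, chr5:28071393-28071422, plus strand, 1 mismatch: gtgtagtgtcGTGGCGTGTaccttccatgc
Cyp51, chr5:4104786-4104815, minus strand, 1 mismatch: ccagctctgcTGACGCCACataggccgaga
Idi1 and Lss held no such match in these windows. The letters CCAAT, which NF-Y binds, were present on either strand in 6 of the 6 windows and in 37.4% of all promoters, and GGGCGG, which Sp1 binds, in 6 of the 6 and in 35.7%. Lss and Idi1 are shown for CCAAT, in capitals and reading on the opposite strand as ATTGG, since they had no match to the core.
Lss, chr10:76531531-76531560, plus strand: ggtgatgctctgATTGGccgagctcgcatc
Idi1, chr13:8885549-8885578, plus strand: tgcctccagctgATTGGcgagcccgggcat
These matches describe letters only.

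TDP-43 binds RNA at GU-rich runs, so GTGTG, in DNA letters, was counted with overlaps in the longest annotated 3′ UTR of each gene (GENCODE vM21, GRCm38). It was present in 66.2% of the 20674 genes with a 3′ UTR of at least 50 bases, at a median of 1.27 per kb. Lss held 8 copies in 2411 bases (3.32 per kb), Cyp51 held 7 in 1980 (3.54 per kb) and Insig1 held 6 in 1842 (3.26 per kb). Srebf2, Idi1 and Fdft1 held 2 each, Hmgcs1 held 1, and Sqle held 0 in a 3′ UTR of 275 bases. The densest sites of the first 3 are printed with the GTGTG letters in capitals.
Lss, chr10:76553071-76553100, plus strand: acGTGTGTGtctgctgcacctggccagcat
Cyp51, chr5:4082639-4082668, minus strand: tacttagatgGTGTGGTGTGtcctttgaaa
Insig1, chr5:28077208-28077237, plus strand: acagagatgaaGTGTGTGtagtaagaatat
Binding at these sites was not measured in the files used here.

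The libraries held 25009904 to 32895542 estimated counts in CAD cells, 22726534 to 31911030 in N2A cells and 9783050 to 15870647 in the transgene experiment. In edgeR's quasi-likelihood test with Benjamini-Hochberg adjustment (adjusted p, called FDR from here on), Tardbp RNA was lower in knockout than in wild-type cells by a log2 change of -2.52 in CAD soma (FDR 3.35e-12), -1.89 in CAD neurites (FDR 3.92e-11), -1.78 in N2A soma (FDR 2.58e-09) and -1.41 in N2A neurites (FDR 1.59e-08). In the transgene experiment, where reads of both transgenes fall on Tardbp too, it differed by -0.02 in soma and 0.08 in neurites and was not called. Of 7 neuronal markers, 6 were above 1 TPM in every library, and Nefm was under 0.1 TPM in all of them. The 5 catecholaminergic markers were low in CAD soma (12.9 to 23.7 TPM summed in wild-type, 36.9 to 55.6 TPM in knockout), with Slc18a2 and Slc6a2 near 0. Markers of glia and microglia summed to at most 14.9 TPM, and markers of fibroblasts and endothelium to at most 8.39 TPM. The summed level of 7 proliferation markers did move with the groups, and is given beside each comparison of knockout or Q331K levels. In the other comparisons, 1 of the 7 was called higher and 5 lower in wild-type CAD than in N2A soma, and between neurites and soma 7 were called higher in neurites of wild-type CAD cells, 6 higher and 1 lower in those of N2A cells and none in wild-type transgene cells. The change of this ratio with the knockout was called for 1 of the 7 (lower, in CAD cells), and the difference in knockout effect between the lines for 3 in soma (2 higher in CAD cells, 1 lower) and 1 in neurites (higher). Their part in the values below was not tested.

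All 8 RNAs were well measured in soma, and their order differed between the lines. Levels of different genes are compared per length, as TPM (transcript abundance scaled to length and library, mean ± SD of 3 wild-type soma libraries). In CAD soma, Hmgcs1, which makes the HMG-CoA that enters the pathway, came first at 364 ± 61.9 TPM. Sqle and Cyp51 followed at 261 ± 63.7 and 250.4 ± 61.0 TPM, then Insig1 at 193 ± 35.8, Lss at 192 ± 31.6, Srebf2 at 171 ± 37.4, Fdft1 at 109 ± 19.0 and Idi1 at 108 ± 20.6 TPM. Every neighbour in this order overlapped the next except Srebf2, whose lowest library (131 TPM) lay above the highest of Fdft1 (123 TPM). In N2A soma, Sqle came first at 373 ± 55.6 TPM, apart from Srebf2 at 272 ± 21.3 TPM, which was in turn apart from Cyp51 at 225 ± 27.6 TPM. Lss (167 ± 3.95 TPM) and Insig1 (166 ± 22.5 TPM) overlapped each other and stood above the last 3, Hmgcs1 at 116 ± 18.2, Idi1 at 82.6 ± 19.7 and Fdft1 at 81.5 ± 10.3 TPM, which overlapped in turn. In wild-type transgene soma, Hmgcs1 again came first, at 330.5 ± 4.01 TPM, apart from Sqle at 262 ± 20.3 TPM. Cyp51 (250.2 TPM) and Insig1 (222 ± 19.3 TPM) overlapped in turn with Sqle there, and Fdft1 came last at 85.3 ± 1.03 TPM, below Idi1 at 95.3 ± 1.40 TPM.

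**Figure D1:**
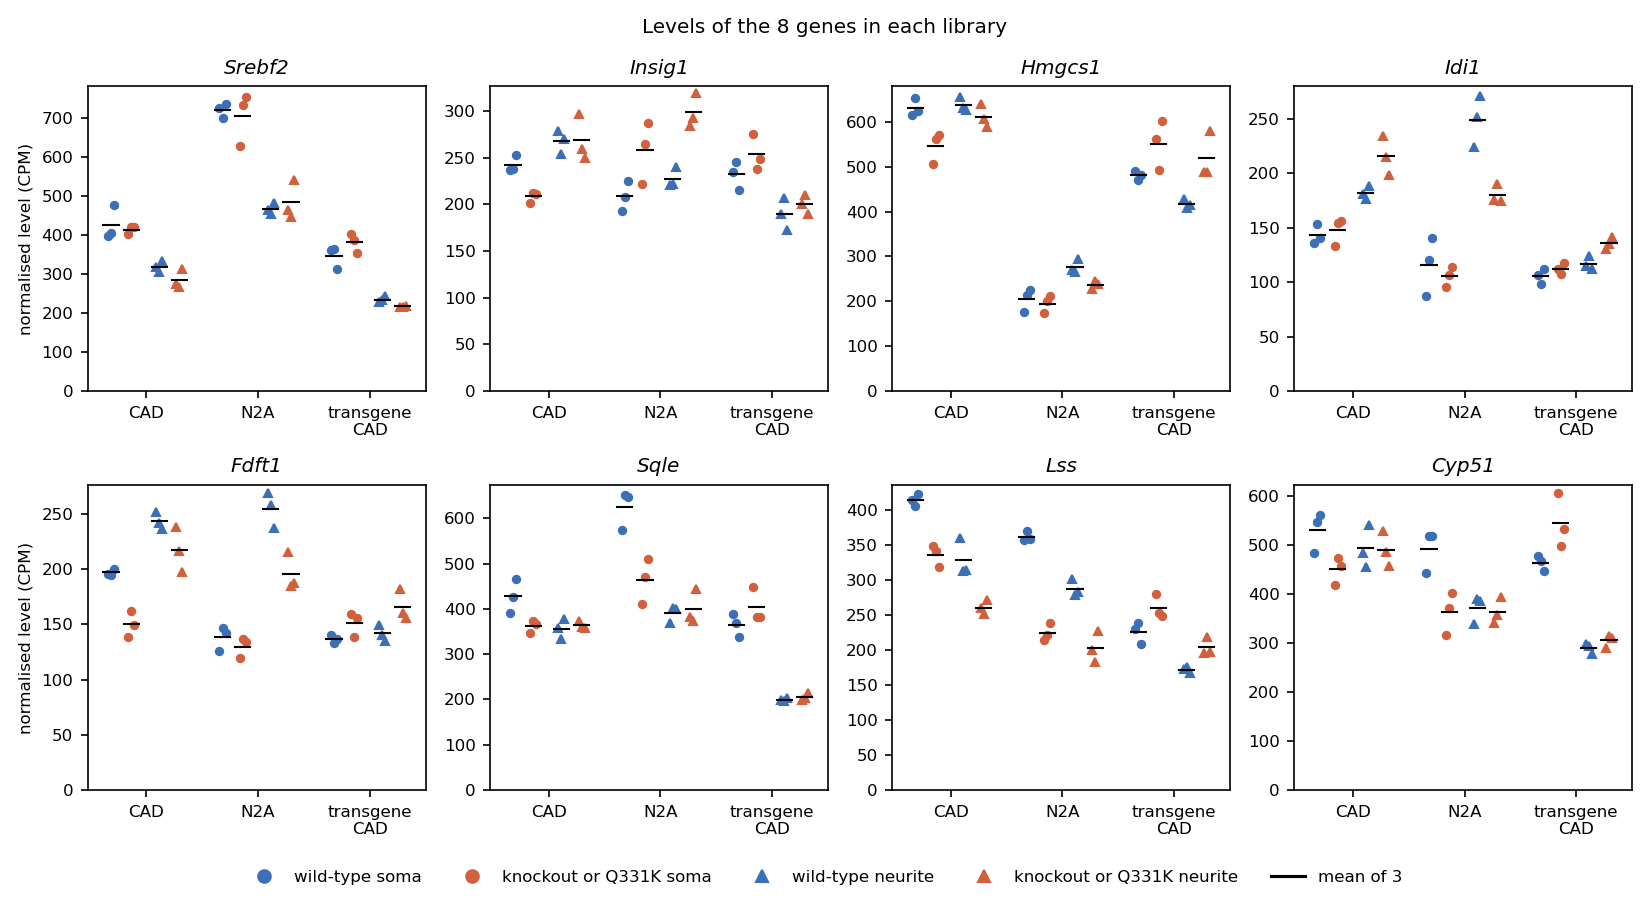
Normalised level (CPM, counts scaled to library size and TMM within an experiment, y axis from 0) of each of the 8 genes in each library of the CAD, N2A and transgene CAD experiments. Circles are soma and triangles neurites, blue is wild-type or wild-type transgene, orange is knockout or Q331K, and black bars are means of 3; values compare within an experiment, as for Lss in N2A soma, where knockout libraries sit at 214 to 239 CPM below wild-type ones at 357 to 370.2 CPM.

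The lines were also compared gene by gene, in a joint fit of the 24 CAD and N2A libraries. Hmgcs1 stood out: its wild-type soma libraries were at 642, 700.1 and 671 CPM in CAD cells and at 159.7, 194 and 209.8 CPM in N2A cells, on the scale of that fit (counts scaled to library size and TMM over all 24, comparable within a gene). The lines did not overlap, and the fitted level in CAD cells was 3.57 times that in N2A cells (log2 difference 1.84, SE 0.10, FDR 2.71e-14). Fdft1, squalene synthase, was higher by 0.73 (FDR 1.17e-07), Idi1, the isopentenyl diphosphate isomerase, by 0.52 (FDR 0.00106), Insig1 by 0.43 (FDR 0.000332) and Lss, which closes squalene epoxide into lanosterol, by 0.41 (FDR 4.44e-05). Srebf2 went the other way, at 416, 434 and 513 CPM in CAD against 656, 635 and 684 CPM in N2A soma, a log2 difference of -0.54 (SE 0.09, FDR 2.25e-05). Sqle, squalene epoxidase, was lower in CAD cells by -0.33 (FDR 0.00488), and Cyp51, lanosterol demethylase, missed the FDR of 0.01 used throughout (0.33, FDR 0.0103). Thus 5 of 8 were called higher and 2 lower in CAD cells, while 30% of the 19700 genes tested were called higher and 21.2% lower. With the replicate number as a block, Idi1 lost its call (0.36, FDR 0.0176), and without the libraries numbered 2, Idi1 (FDR 0.0501), Insig1 (FDR 0.0249) and Sqle (FDR 0.112) did. Sqle also lost it without a filter (FDR 0.0328) and with length-scaled counts (FDR 0.0218), and Cyp51 was called in both of these and with DESeq2 (FDR 0.00159, 0.00677 and 0.00916). The median log2 difference of the 8 was 0.42, against -0.07 over all genes and 0.43 over the 14 other enzymes of the pathway, of which 8 were called higher and 2 lower.

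The knockout was compared with wild-type first in soma, from here on with CPM scaled within each experiment. In CAD soma, 2 of the 8 genes were called lower, Fdft1 and Lss, and none higher, while 11.6% of 17343 genes were called lower and 11.2% higher. Fdft1, at chr14:63145150-63179578, condenses farnesyl diphosphate into squalene, the first step given over to sterols. It stood at 196, 195 and 201 CPM in wild-type and at 139, 162 and 149.8 CPM in knockout libraries. The groups did not overlap, and the level fell to 0.763 of wild-type (log2 change -0.39, SE 0.07, FDR 0.000679). Lss, at chr10:76531588-76557138, was at 415, 406 and 423 CPM in wild-type and 348, 342 and 319 CPM in knockout libraries. These groups did not overlap either, and the change was -0.30 (SE 0.07, FDR 0.00319).

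Another 4 genes lay below wild-type in CAD soma without overlap but did not pass. Sqle (chr15:59315077-59331192) was at 390.3, 426 and 466 CPM in wild-type and 347, 373 and 367 CPM in knockout soma (-0.24, FDR 0.0203). Cyp51 (chr5:4081145-4104746) was at 484, 547 and 562 against 419, 473 and 457 CPM (-0.24, FDR 0.0440). Hmgcs1 (chr13:119690379-119708260) was at 615, 653 and 624 against 506, 561 and 570.3 CPM (-0.21, FDR 0.0291). For each of these 3 the highest knockout library still lay below the lowest wild-type library. Insig1 (chr5:28071363-28078662), whose protein holds SREBP2 in the endoplasmic reticulum, was at 237, 238 and 253 against 202, 213 and 212 CPM (-0.22, FDR 0.0290). In all, 6 of 8 lay below without overlap in CPM, where 22.4% of all genes did. In TPM, which is scaled to transcript length and library and not by TMM, Fdft1 and Lss alone lay below without overlap. The mean TMM factors were close, at 1.243 in wild-type and 1.236 in knockout CAD soma. Why CPM and TPM differ here was not tested. Srebf2 itself (chr15:82147181-82205379) was at 398, 405 and 477 CPM in wild-type and 402, 419.9 and 420.5 CPM in knockout soma, which overlapped (-0.04, FDR 0.765). Idi1 (chr13:8885501-8892451) overlapped too, with 136, 153 and 141 CPM against 134, 154 and 156 CPM (0.05, FDR 0.712). The median change of the 8 was -0.23, against 0.00 over all genes (0.0024). At an FDR of 0.05, and with DESeq2 at 0.01, 6 members were called lower, where 16.8% and 13.1% of all genes were. Without the libraries numbered 2, and without those numbered 3, none was called (Fdft1 FDR 0.0127 and 0.0120, Lss FDR 0.0459 and 0.0617), and with library totals in place of TMM scaling Lss was not called (FDR 0.0116), nor with counts scaled for the length of the transcripts in use (-0.25, FDR 0.106). The 7 proliferation markers were all called higher in CAD knockout soma (summed 132 to 163 TPM against 71.5 to 107 TPM), and their part in these changes was not tested; fewer cells of a type and less RNA per cell cannot be told apart in such bulk libraries.

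In N2A soma, Lss, Sqle and Cyp51 were called lower and none higher, 3 of 8, where 5.15% of 17912 genes were called lower and 10.9% higher. Lss was at 357, 370.2 and 359 CPM in wild-type and at 214, 221 and 239 CPM in knockout libraries. The gap between the groups was wider than the whole spread within either, and the level fell to 0.62 of wild-type (log2 change -0.69, SE 0.08, FDR 2.86e-05). Sqle, which adds the oxygen to squalene, was at 575, 651 and 647 CPM against 411, 471 and 511 CPM (-0.43, SE 0.10, FDR 0.00486). Cyp51 was at 442, 517 and 517 CPM against 317, 372 and 401 CPM (-0.44, SE 0.10, FDR 0.00529). For both, the number 1 library was the lowest of its group in each genotype, and the groups did not overlap. These 3 act in a row, from squalene to the first demethylation of lanosterol.

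The other 5 members in N2A soma overlapped between the genotypes. Insig1 was at 193, 208 and 226 CPM in wild-type and 222, 265 and 288 CPM in knockout libraries, with a change of 0.31 (SE 0.10, FDR 0.0267). It was not called, though an alternative fit with the replicate number as a block called Insig1 higher (0.30, FDR 0.00479) beside the same 3 falls. Srebf2 was at 725, 701 and 735 against 628, 734 and 755 CPM (-0.03, FDR 0.829). Hmgcs1 (-0.07), Fdft1 (-0.09) and Idi1 (-0.14) had FDRs of 0.436 to 0.581. In this comparison 3 of 8 lay below without overlap, against 18.8% of all genes, and the median change was -0.12, against -0.02 over all genes. With such length-scaled counts Lss alone was called, and without the libraries numbered 2 no member was called (Lss FDR 0.0401, Sqle 0.308, Cyp51 0.308). Sqle was also not called without the libraries numbered 1 (FDR 0.0123) or 3 (FDR 0.0400), nor Cyp51 without those numbered 3 (FDR 0.0499). Proliferation markers were again all called higher (7 of 7, summed 210.1 to 251 TPM in knockout against 101 to 115 TPM), and their part was not tested.

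In neurites, Lss was the member that fell in both lines. In CAD neurites it was at 361, 313 and 314 CPM in wild-type and at 259.7, 252 and 272 CPM in knockout libraries (-0.33, SE 0.07, FDR 0.00137). It was the one member called of 8, where 13.5% of all genes were called lower and 11.8% higher. Idi1 lay above wild-type without overlap, at 181, 177 and 189 CPM against 235, 215 and 198 CPM, and did not pass (0.25, FDR 0.0214). It was called higher with DESeq2 (FDR 0.00549), upper-quartile scaling (FDR 0.00944), at least 10 counts in every library (FDR 0.00503) and library totals (0.35, FDR 0.0065). The other 6 overlapped, from Srebf2 at -0.16 to Sqle at 0.03, and the median of the 8 was -0.03. Lss was not called without the libraries numbered 1 or 2 (FDR 0.0242 and 0.0371), nor with library totals (FDR 0.0554). Proliferation markers summed to 93.8 to 95.7 TPM in knockout against 35.2 to 63.9 TPM in wild-type CAD neurites, with 7 of 7 called higher, and their part was not tested.

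In N2A neurites, Lss and Fdft1 were called lower and Insig1 higher, where 5.1% of genes were called lower and 6.48% higher. Lss was at 302, 278 and 283 CPM in wild-type and at 200, 184 and 228 CPM in knockout libraries (-0.50, SE 0.08, FDR 0.000564). Fdft1 was at 269, 259 and 237 CPM against 216, 185 and 188 CPM (-0.38, SE 0.09, FDR 0.00642). Both groups stood apart. Insig1 was at 221, 222 and 239.6 CPM against 284, 293 and 319.6 CPM, every knockout library above every wild-type one (0.39, SE 0.10, FDR 0.00835). Idi1 (224, 251 and 271 against 176, 190.3 and 175 CPM, -0.47, FDR 0.0219) and Hmgcs1 (-0.23, FDR 0.112) lay below without overlap, so that 4 of 8 did, against 20.2% of all genes. Idi1 was called lower with DESeq2 (FDR 0.00237), without a filter (FDR 0.00019) and with the replicate block (-0.46, FDR 0.0033). Srebf2 (0.05), Sqle (0.04) and Cyp51 (-0.03) overlapped. With length-scaled counts no member was called in N2A neurites, and none without the libraries numbered 2 (Lss FDR 0.142, Fdft1 0.354, Insig1 0.245). With library totals Insig1 was not called (0.35, FDR 0.0144). Without the libraries numbered 1, Lss (FDR 0.0133) and Insig1 (FDR 0.0114) were not called and Idi1 was (FDR 0.00411), and without those numbered 3 Lss alone was called. Proliferation markers summed to 103 to 179 TPM against 55.8 to 97.7 TPM, with 5 of 7 called higher, and their part was not tested.

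**Figure D2:**
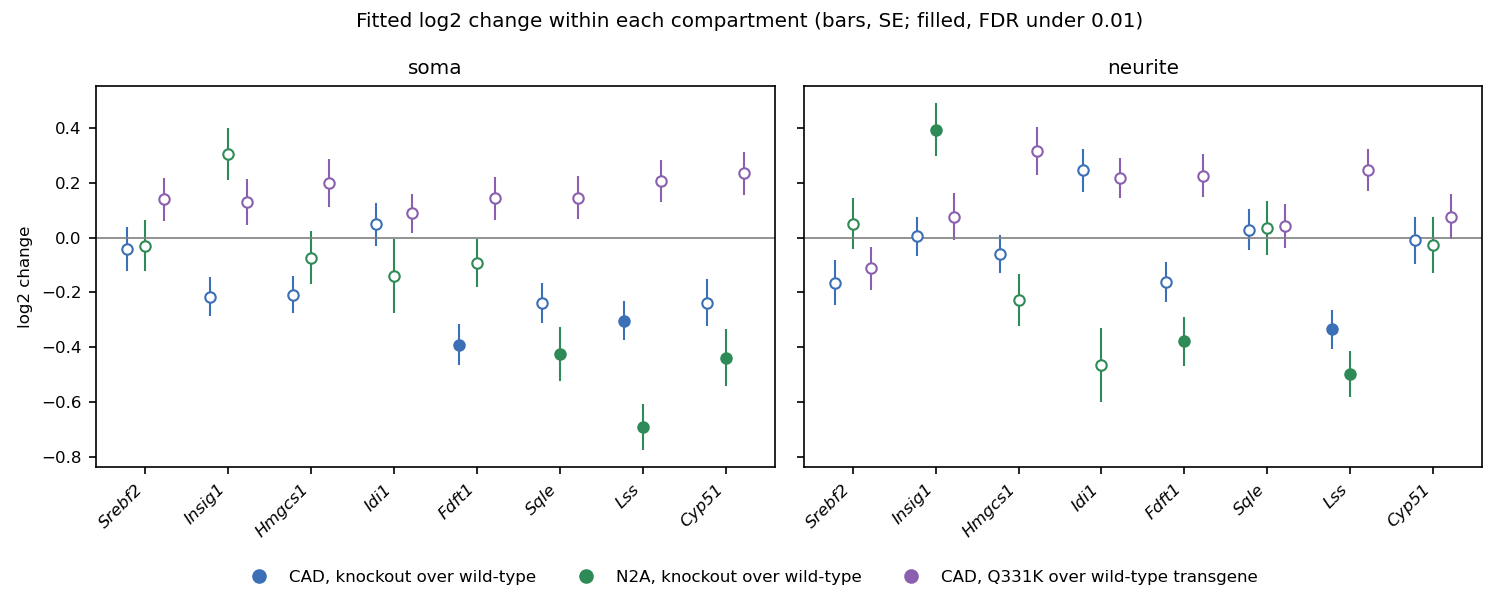
Fitted log2 change (y axis) of each gene, knockout over wild-type in CAD (blue) and N2A (green) cells and Q331K over wild-type transgene (purple), in soma (left) and neurites (right). Bars are standard errors and filled points have an FDR under 0.01; Lss is filled in both lines and compartments, and no purple point is filled.

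The knockout's effect was then compared between the lines, as a difference of log2 changes (CAD minus N2A) in the joint fit, whose scaling and filter are its own, so that it need not equal the gap between the changes given above. In soma, Insig1 was the member called, with a difference of -0.60 (SE 0.13, FDR 0.00263). It was 1 of 8, where 7.87% of 19700 genes were called in this direction and 2.64% in the other. Without the libraries numbered 2 or 3 it was not called (FDR 0.130 and 0.0287), nor with library totals in place of TMM (-0.44, FDR 0.0238). Fdft1 (-0.37, FDR 0.0358) and Lss (0.31, FDR 0.0444) did not pass, and Lss was called with DESeq2 (0.37, FDR 0.00182), with upper-quartile scaling (0.50, FDR 0.000746) and with at least 10 counts in every library (0.46, FDR 0.00115). In neurites edgeR called no member (2 of 8 had an unadjusted p under 0.05), where 6.23% of genes were called lower and 2.94% higher. Idi1 came closest (difference 0.66, SE 0.18, FDR 0.0124), followed by Insig1 (-0.44, FDR 0.0253). Both were called with DESeq2 and with the replicate block (Idi1 FDR 0.00216, Insig1 FDR 0.00530). Sqle and Cyp51 were not called in the soma comparison in any setting, so their falls in N2A soma were not shown to differ from the values in CAD soma.

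Localization was read as the LR (localization ratio), the log2 of the neurite level over the soma level. Both levels were scaled to library size and TMM. A positive LR means a higher level in neurites on that scale, which is not always a larger share of the counts. In wild-type cells Idi1 and Fdft1 had the highest fitted LRs of the 8 in each experiment, and Srebf2, Sqle and Lss were called lower in neurites in each. Whether the order differed between experiments was not tested. In CAD cells Idi1 (LRs of 0.41, 0.21 and 0.42 in same-numbered libraries) and Fdft1 (0.36, 0.31 and 0.24) were called higher in neurites, at fitted LRs of 0.35 (SE 0.08, FDR 0.00146) and 0.30 (SE 0.07, FDR 0.00262). Srebf2 (-0.33, -0.40 and -0.52), Lss (-0.20, -0.38 and -0.43) and Sqle (-0.12, -0.35 and -0.31) were called lower, at -0.42 (FDR 0.000417), -0.33 (FDR 0.000813) and -0.26 (FDR 0.00717). That is 2 of 8 higher and 3 lower, where 23.7% of all genes were called higher and 17.7% lower. Insig1 (0.14), Hmgcs1 (0.02) and Cyp51 (-0.11) were not called. Without the libraries numbered 2 no member was called in CAD cells, without those numbered 3, 2 were, and with length-scaled counts 1 was. Fdft1 also lost its call with upper-quartile scaling (FDR 0.0113), at least 10 counts in every library (FDR 0.0121) and without the libraries numbered 1 (FDR 0.0134). Sqle lost it without a filter (FDR 0.0155).

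In N2A cells the fitted LRs ran from -0.68 to 1.10, against -0.42 to 0.35 in CAD cells, and this difference in spread was not tested. Idi1 had LRs of 1.36, 1.06 and 0.94, with a fitted LR of 1.10 (SE 0.14, FDR 3.38e-06), a value from counts under TMM scaling. Its TPM, scaled to transcript length and library and not by TMM, was lower in neurites than in soma in each same-numbered pair. It stood at 37.1, 76.1 and 72.8 in neurites against 62.0, 84.3 and 101.4 in soma. Why LR and TPM differ in direction was not tested. Fdft1 followed with 1.09, 0.82 and 0.73 (fitted 0.88, SE 0.09, FDR 4.32e-07) and Hmgcs1 with 0.61, 0.31 and 0.39 (fitted 0.43, FDR 0.00105). Every library pair of these 3 had a positive LR, though the TPM of Fdft1 and Hmgcs1 too was lower in neurites in each pair. The same held for the TPM of Idi1 and Fdft1 in wild-type CAD cells. Sqle had LRs of -0.64, -0.69 and -0.70, Srebf2 of -0.64, -0.63 and -0.61, Cyp51 of -0.39, -0.41 and -0.43, and Lss of -0.24, -0.41 and -0.35. All 4 were called lower, at fitted LRs of -0.68 (FDR 1.95e-05), -0.62 (FDR 2.59e-05), -0.41 (FDR 0.00242) and -0.33 (FDR 0.00236). Insig1 was not called (0.12, FDR 0.261). The counts were 3 higher and 4 lower of 8, against 32.5% and 26.6% of all genes, and without the libraries numbered 2, 4 members were called. Hmgcs1 was not called with upper-quartile scaling (0.14, FDR 0.127), at least 10 counts in every library (0.20, FDR 0.0451) or library totals (0.096, FDR 0.345), nor Cyp51 and Lss with length-scaled counts (FDR 0.0121 and 0.0286) or without the libraries numbered 2 (FDR 0.0821 and 0.123) or 3 (FDR 0.0269 and 0.0204).

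In wild-type transgene cells 4 of 8 were called lower in neurites and none higher, where 12.6% of 13940 genes were called lower and 14.9% higher. Sqle had LRs of -0.97, -0.90 and -0.73 (fitted -0.87, FDR 3.19e-07), Cyp51 of -0.68, -0.67 and -0.69 (fitted -0.68, FDR 5.37e-06), Srebf2 of -0.67, -0.64 and -0.36 (fitted -0.56, FDR 2.62e-05) and Lss of -0.41, -0.45 and -0.32 (fitted -0.40, FDR 0.000606). Idi1 (0.15) and Fdft1 (0.05) were the members above 0 and were not called. Insig1 (-0.29, FDR 0.0119) was called lower with DESeq2 (FDR 0.00290), upper-quartile scaling (FDR 0.00817), the replicate block (FDR 0.00674) and the other filters and scaling tried except length-scaled counts. Lss was not called with length-scaled counts (FDR 0.0234) or without the libraries numbered 1 (FDR 0.0212) or 2 (FDR 0.0149). The position of 0 is set by TMM scaling. In CAD cells the 10 most abundant genes held 16.7% to 25.1% of the counts in neurites and 8.28% to 9.93% in soma. With library totals in its place, the median LR of all genes moved from -0.02 to -0.69 in CAD, from -0.03 to -0.37 in N2A and from -0.01 to -0.53 in wild-type transgene cells. Idi1 and Fdft1 then had negative LRs in CAD cells (-0.33 and -0.37) and remained above that median.

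**Figure D3:**
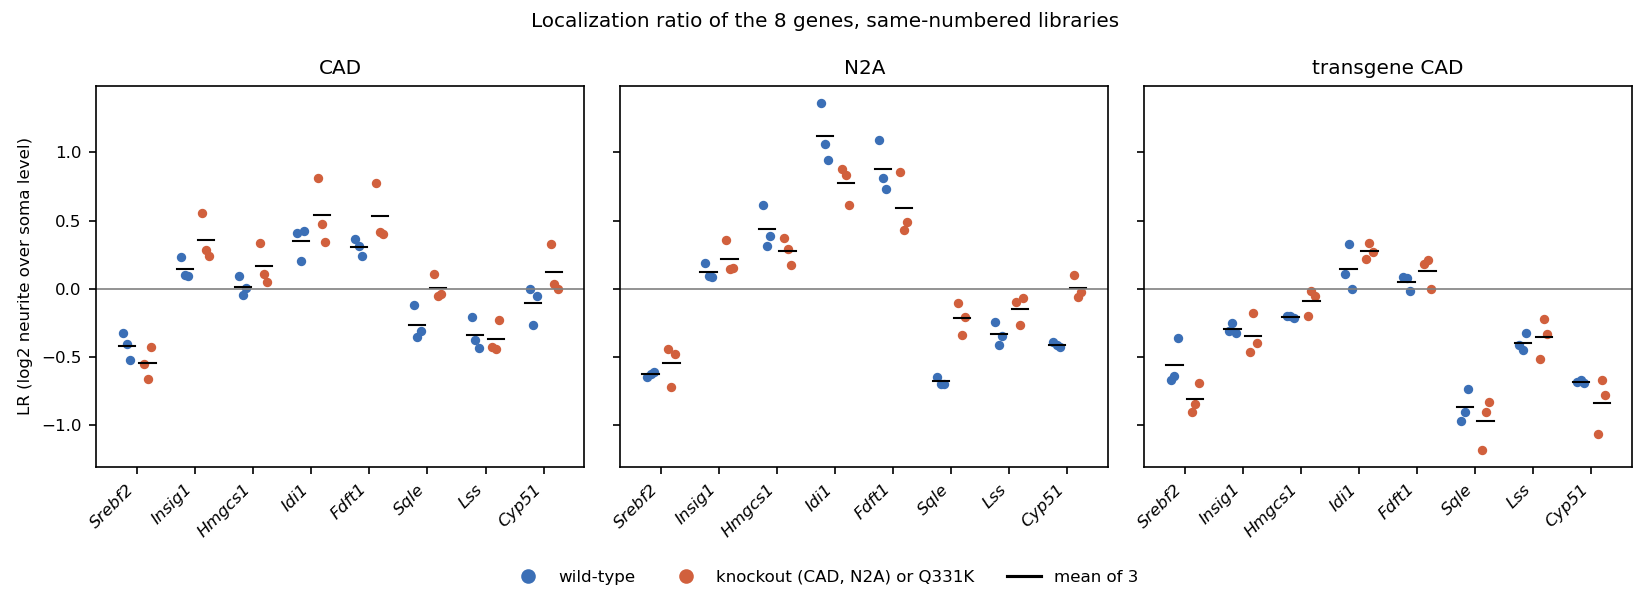
Localization ratio (log2 neurite over soma level, y axis) of each gene from same-numbered libraries of the CAD, N2A and transgene CAD experiments, blue for wild-type, orange for knockout or Q331K, black bars for means of 3. In wild-type N2A cells Idi1 reaches 1.36 and Sqle -0.70, and in all 3 panels Idi1 and Fdft1 stand above Srebf2, Sqle and Lss.

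The change in LR on loss of TDP-43 answers the study's main question, and edgeR called none of the 8 genes in either line. At an unadjusted p under 0.05 there were 3 of 8 in each line, and DESeq2 called 0 in CAD and 1 in N2A cells. In CAD cells 0.225% of all genes were called higher and 0.208% lower, and 1824 of 17343 genes had an unadjusted p under 0.05. Sqle had LRs of -0.12, -0.35 and -0.31 in wild-type and 0.11, -0.05 and -0.04 in knockout cells (change 0.27, SE 0.10, FDR 0.364). Cyp51 (0.23), Fdft1 (0.23) and Insig1 (0.22) also lay above wild-type without overlap, with FDRs of 0.457 to 0.546. So did 4 of 8 in all, where 6.84% of genes did. Idi1 (0.20), Hmgcs1 (0.15), Lss (-0.03) and Srebf2 (-0.12) overlapped.

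In N2A cells 0.0893% of genes were called higher in LR and 0.0112% lower, and 5580 of 17912 had an unadjusted p under 0.05. Sqle had LRs of -0.64, -0.69 and -0.70 in wild-type and -0.10, -0.34 and -0.20 in knockout cells (change 0.46, SE 0.14, FDR 0.0514). Cyp51 had LRs of -0.39, -0.41 and -0.43 against 0.10, -0.06 and -0.03 (change 0.41, SE 0.14, FDR 0.0763). For both genes the soma level fell while the neurite level overlapped between the genotypes. They were 2 of 8 above without overlap, against 14.9% of genes. DESeq2 called Sqle (0.42, FDR 0.00756), and called 1909 genes where edgeR called 18. Idi1 lay below without overlap (-0.33, FDR 0.250).

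In the transgene experiment, Q331K was set against wild-type TDP-43 in libraries of lower depth than those of the other experiments. No gene of 13940 was called by edgeR in soma, neurites or LR (0% each). Unadjusted p-values under 0.05 were found for 3 members in soma, 4 in neurites and 1 in LR, and DESeq2 called no member. Over all genes 995, 1372 and 605 had such a p, and DESeq2 called 0, 14 and 0. In soma all 8 members had a positive value, from Idi1 at 0.09 to Cyp51 at 0.23, with a median of 0.14 against 0.00 over all genes (-0.0018). Cyp51 was at 477, 467 and 447 CPM with the wild-type transgene and at 606, 499 and 532 CPM with Q331K (0.23, SE 0.08, FDR 0.512). Lss (230.0, 239 and 209 against 279.9, 254 and 249 CPM) and Hmgcs1 (490.3, 469.6 and 481 against 561, 493 and 601 CPM) lay above without overlap as well. These were 3 of 8, where 7.3% of all genes did so. In neurites Hmgcs1 was at 427, 409 and 415 CPM against 489, 489 and 579 CPM (0.32, SE 0.09, FDR 0.289). Lss (0.25), Fdft1 (0.23) and Idi1 (0.22) stood above without overlap there too, 4 of 8 against 6.99% of genes, and Srebf2 stood below (-0.11). With length-scaled counts the value of Lss in neurites turned to -0.31. In LR, Hmgcs1 (0.12) lay above and Srebf2 (-0.25) below without overlap. Proliferation markers lay lower with Q331K (soma 299.8 to 400.2 TPM against 377 to 525 TPM, 0 of 7 called), and their part was not tested. The FDRs of all 8 genes were at least 0.289.

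Of the other 14 enzymes of the pathway, more were called lower than higher in each knockout comparison. Over all genes, 11.6% were called lower and 11.2% higher in CAD soma, and 13.5% and 11.8% in CAD neurites. For N2A cells the shares were 5.15% and 10.9% in soma, and 5.1% and 6.48% in neurites. In CAD soma 10 of the 14 were called lower and 1 higher, with a median of -0.37. Tm7sf2, a sterol reductase, fell by 0.92 on the log2 scale, Ebp, a sterol isomerase, by 0.67, Acat2, which joins the first acetyl units, by 0.67, and Hsd17b7, a keto-reductase, by 0.64. In N2A soma 6 of 14 were called lower and 1 higher, with a median of -0.38, led by Tm7sf2 (-0.82), Dhcr7 (-0.61), which makes the last reduction, and Nsdhl (-0.55). In neurites the counts were 7 lower and 1 higher in CAD (Tm7sf2 -0.97, Acat2 -0.52, Hsd17b7 -0.51) and 5 lower and 1 higher in N2A cells (Acat2 -0.68, Nsdhl -0.51, Fdps -0.48). The enzyme called higher each time was Mvk, mevalonate kinase, which rose in CAD soma (1.17, FDR 3.1e-07) and neurites (1.04, FDR 1.44e-06) and in N2A soma (0.85, FDR 0.00115) and neurites (1.11, FDR 0.000118). Mvk was a low RNA, at 3.98, 3.22 and 3.59 CPM in wild-type and 7.95, 8.25 and 8.08 CPM in knockout CAD soma. With Q331K none of the 14 was called, and 13 of them had a positive value in soma.

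**Figure D4:**
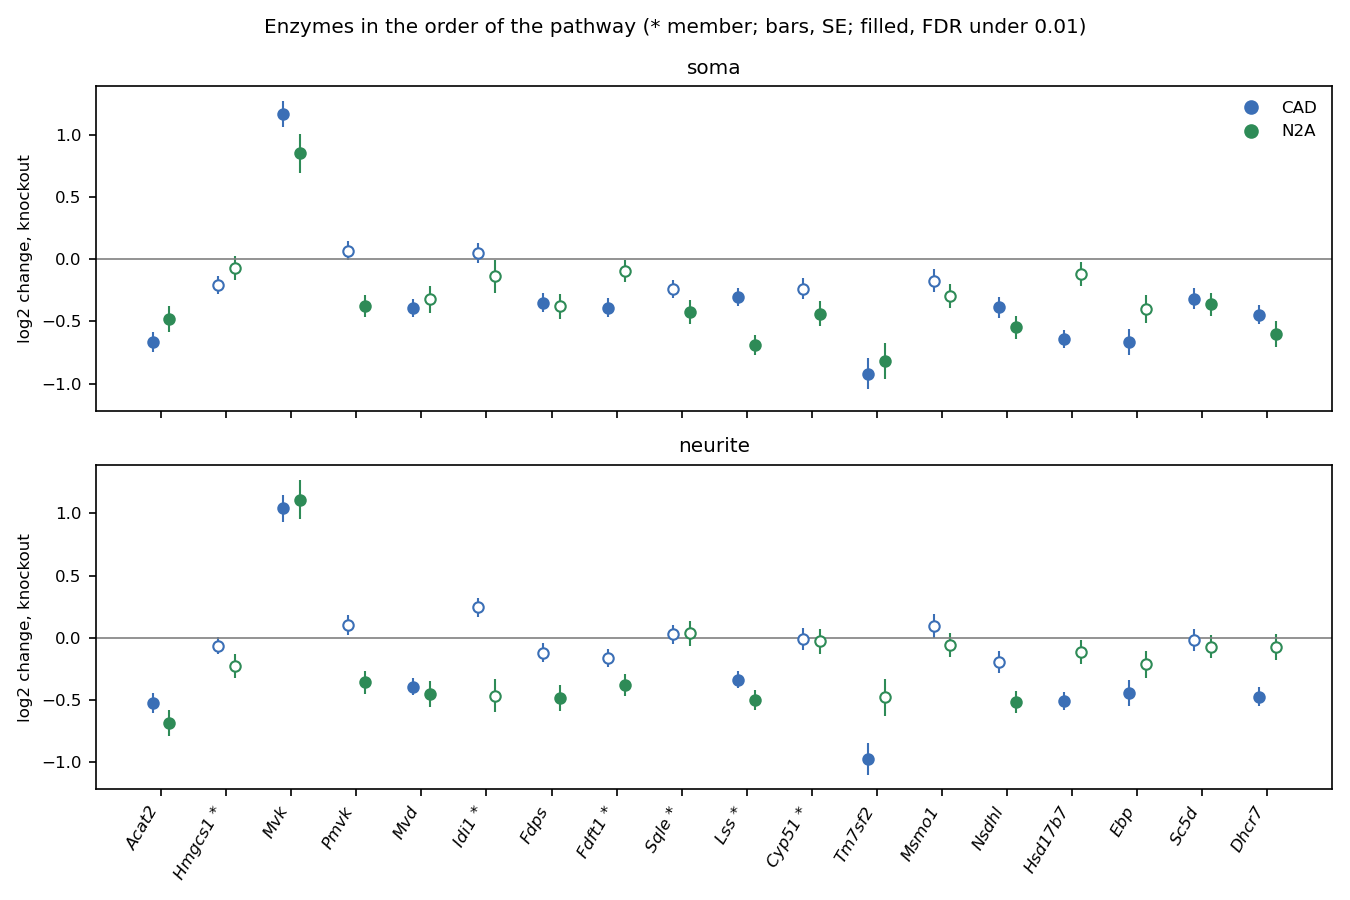
Log2 change in knockout over wild-type cells (y axis) of 18 of the enzymes in the order in which they act, in soma (top) and neurites (bottom), CAD in blue and N2A in green; stars mark members, bars are standard errors, filled points have an FDR under 0.01. Most points lie below 0 in soma, and Mvk, at 1.17 and 0.85 in soma, lies far above.

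Genes that control SREBP2 or share its targets gave mixed calls. The shares of all genes called lower and higher were 11.6% and 11.2% in CAD soma and 13.5% and 11.8% in CAD neurites. They were 5.15% and 10.9% in N2A soma and 5.1% and 6.48% in N2A neurites. For SREBP processing, 1 gene called each way in CAD soma was near those shares. Of 8 genes of SREBP processing, Srebf1, the sister factor of fatty acid synthesis, was called lower in CAD soma (-0.40) and neurites (-0.60), and Scap in CAD neurites (-0.50). Insig2 was called higher in CAD soma (0.31) and neurites (0.48) and lower in N2A soma (-0.32), and its 2 CAD values turned to -0.23 and -0.06 with length-scaled counts. Mbtps1, the first protease to cut SREBP2, was called higher in N2A neurites (0.42). Of 6 genes of sterol uptake and transport, Tmem97 (-0.52) and Npc2 (-0.51) were called lower in CAD soma and none in the other knockout comparisons. Of 11 genes of fatty acid synthesis, which SREBP1 drives, 7 were called lower in CAD soma (Acss2 -0.92, Fads1 -0.71, Elovl6 -0.54, Scd1 -0.48), 6 in CAD neurites (Scd1 -0.98, Acss2 -0.82, Fasn -0.71, Fads1 -0.70), 2 in N2A soma (Acss2 -0.72, Elovl6 -0.48) and 2 in N2A neurites (Acss2 -0.66, Me1 -0.47), and none higher.

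Estimates for single transcripts showed where the annotation enters these values. For Srebf2, a retained-intron transcript (ENSMUST00000230105) took 17.3% ± 1.30 of the gene's TPM in wild-type CAD soma and 32.4% ± 1.68 in neurites (SD, n = 3). The shares were 11.2% ± 1.13 and 30.2% ± 1.93 in wild-type N2A cells, and 15.7% ± 2.39 and 30.9% ± 0.836 in wild-type transgene cells. In knockout CAD cells they were 17.6% ± 1.24 and 31.5% ± 2.86. For Lss, the longest coding transcript (ENSMUST00000048678) took 41.8% ± 1.13 in wild-type and 42.3% ± 4.77 in knockout CAD soma, and 35.3% ± 4.87 and 42.9% ± 1.06 in N2A soma. A noncoding Lss transcript of 352 bases (ENSMUST00000159013) took 23.7% in wild-type CAD soma. Shares of this kind are inferred from reads that several transcripts have in common.

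Across the 36 libraries, centred within each experiment, the RNAs that followed the mean of the 8 most closely were Msmo1 (Pearson r = 0.915), Xbp1 (0.891), Sc5d (0.888), Surf4 (0.883), Rtn4 (0.872), Tmem41b (0.855), Arl6ip5 (0.851), Cldnd1 (0.849), Cybc1 (0.846) and Slc39a1 (0.838), of 19760 genes. Msmo1 and Sc5d are enzymes of the same pathway. These libraries share compartments, lines and scaling, so the values describe likeness only, and 5 of the 10 were also among the first 10 when libraries were centred by compartment too, and 2 when they were not centred. Among the members, Cyp51 (r = 0.782), Hmgcs1 (0.673) and Sqle (0.591) followed the mean of the others most closely, and Fdft1 (0.255), Srebf2 (0.231) and Idi1 (0.0883) least. With centring by compartment too, Fdft1 (0.644) and Idi1 (0.421) stood above Insig1, then the least (0.201), and without centring Srebf2 was (0.0074).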

How the data were processed

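PolyA RNA of soma and neurite fractions was sequenced in 36 mouse libraries (3 per group). Per the labels and the study's methods, the authors trimmed reads with cutadapt and ran salmon on mm10 transcripts, and the deposited tables give each transcript's TPM and estimated count; the strand setting was not given in the sources used here. Expected counts were summed to genes with GENCODE vM21 (GRCm38; the methods name another release) and rounded, leaving at most 0.129% of a library without a gene. TPM values, which the authors scaled to transcript length and library, were summed likewise. edgeR 4.0.16 in R 4.3.3 fitted each experiment of 12 libraries, and CAD with N2A jointly (TMM, filterByExpr by group, glmQLFit, glmQLFTest, Benjamini-Hochberg over all genes, FDR 0.01). DESeq2 1.42.0, other scalings, filters, length-scaled counts and a replicate block were alternatives, and library totals without TMM were chosen after seeing the data. Tested on simulated 2-fold changes in soma, the fits recovered 181 (CAD), 178 (N2A) and 168 (transgene experiment) of 200 changed genes and called 1, 3 and 0 unchanged ones. The simulation gave every gene the same dispersion (spread between libraries). Its changes were larger than any member's knockout or Q331K change in soma, and recovery of smaller changes was not tested.

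Same-numbered soma libraries of both genotypes deviated together in N2A (correlations of deviations from group means of 0.122 to 0.549) and CAD cells (0.0893 to 0.482). Numbers did not pair cleanly, as wild-type number 2 and knockout number 3 gave 0.160 in N2A soma. The other same-numbered pairings ranged from -0.167 to 0.23. The labels do not say that replicates were separate cultures, so p-values measure the spread between these libraries. The 8 genes, named in every comparison, and the other lists were chosen with earlier results of these data known. Of other lists, the counts past the threshold and at most the 4 called genes with the largest change were named, with Tardbp and the 10 RNAs most like the members; some genes of these lists are not reported here by name. Python 3.11.15, pandas 2.3.3, numpy 2.4.6 and matplotlib 3.10.9 served the other steps.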

Additional observations from a re-analysis of the deposited data

Results flagged for a closer look

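The joint edgeR fit tests the difference in knockout effect between CAD and N2A cells. It called 7 genes given here in neurites and 5 in soma, with FDRs of at most 0.00288. They were picked from the members, Tardbp, the other pathway enzymes, SREBP processing and cholesterol export. Other genes called on these and further lists are not given here. Over all genes, the knockout effect was called higher in CAD than in N2A cells for 2.94% and lower for 6.23% in neurites. In soma these shares were 2.64% and 7.87%. In neurites the effect in CAD minus that in N2A cells was -1.29 for Mylip, -0.98 for Abca1, -1.12 for Srebf1, -0.81 for Scap, -0.57 for Mbtps1, 0.54 for Insig2 and -0.53 for Tardbp on the log2 scale. In soma it was -1.46 for Mylip, -0.60 for Insig1, -0.60 for Hsd17b7, 0.55 for Insig2 and -0.82 for Tardbp. In CAD cells the fall of Tardbp was smaller in neurites than in soma, a change in LR of 0.63 (FDR 0.00500 in edgeR's quasi-likelihood test). Groups of 3 were not searched for a library far from the others.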

How the results depend on the processing

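In CAD soma, where 2 members were called, 6 were called at an FDR of 0.05, 6 with DESeq2, 1 with length-scaled counts, 1 with library totals and 0 to 2 leaving out a replicate number. In CAD neurites (1 called) it was 2 at an FDR of 0.05, with DESeq2, with upper-quartile scaling and with at least 10 counts in every library, and 0 to 1 leaving out a number. For wild-type LR in CAD cells (5) it was 1 with length-scaled counts, 8 with library totals, all lower, and 0 to 4 leaving out a number. In N2A soma (3) and neurites (3), length-scaled counts left 1 and 0, and leaving out a number 0 to 2 in each. For wild-type LR in N2A cells (7) leaving out a number gave 4 to 7, and for LR change there (0) DESeq2 gave 1. For wild-type transgene LR (4), library totals gave 8. For the level of CAD over N2A soma (7) leaving out a number gave 4 to 8. For the lines' difference in soma (1) it was 3 at an FDR of 0.05, 2 with DESeq2, upper-quartile scaling and at least 10 counts, 0 with library totals and 0 to 1 leaving out a number; in neurites (0) it was 2 in those settings and with library totals and the replicate block, 1 without a filter and 0 to 2 leaving out a number. Of the 120 values of members, 22 lost their call without the libraries numbered 2, 6 without those numbered 1 and 12 without those numbered 3.

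Of the 120 values of members, 15 changed sign with library totals, 8 with length-scaled counts, 5 each with upper-quartile scaling and with at least 10 counts, 3 with DESeq2, 1 without a filter, 0 with the replicate block, and 4, 7 and 9 without the libraries numbered 1, 2 and 3. Those that were called or exceeded their error follow, beside Insig2, which is no member. With library totals, wild-type LR in CAD cells was -0.37 for Fdft1, -0.53 for Insig1, -0.33 for Idi1 and -0.66 for Hmgcs1, and in wild-type transgene cells -0.47 for Fdft1 and -0.38 for Idi1. For Insig1 in N2A cells it was -0.21, and -0.17 with upper-quartile scaling and -0.11 with at least 10 counts. With length-scaled counts, Insig2 was -0.23 in CAD soma and -0.064 in CAD neurites, Idi1 0.016 in N2A soma, Lss -0.31 with Q331K in neurites and -0.063 for the lines' difference in neurites. Leaving out a number, N2A soma gave -0.24 to 0.024 for Idi1 and -0.10 to 0.0015 for Fdft1. Beyond the shifts of library totals, the cause was not tested.

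The share of called genes that were higher moved with the scaling: from 57.3% to 6.28% (CAD wild-type LR), 46.5% to 64.8% (CAD neurites), 68% to 54.5% (N2A soma), 56% to 39.8% (N2A neurites) and 55% to 36.8% (N2A wild-type LR) with library totals, and to 49% in N2A soma and 39.1% in N2A wild-type LR with upper-quartile scaling. The replicate block gave 4 called members in N2A soma, 4 in N2A neurites and 5 for wild-type transgene LR, in place of 3, 3 and 4, and changed no other call of a member beyond those named. Over all genes, LR change in N2A cells had 18 calls with edgeR, 1909 with DESeq2, 145 with upper-quartile scaling and 923 without a filter, and Q331K had 141, 103 and 53 without a filter (soma, neurites, LR) against 0.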

Other observations

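Among genes of cholesterol export and storage, many of them LXR targets, Mylip was called lower in CAD and higher in N2A cells. Of the 9 on the list, 8 were tested. Over all genes, 11.6% were called lower and 11.2% higher in CAD soma, and 13.5% and 11.8% in CAD neurites. Those called higher were 10.9% in N2A soma and 6.48% in N2A neurites. In CAD soma Mylip, a ubiquitin ligase and LXR target, was called lower (-0.81), as was Lpcat3 (-0.53), and Soat1, which esterifies cholesterol for storage, was called higher (0.60). In CAD neurites 4 were called lower, led by Nr1h3 (-0.99) and Mylip (-0.65), and Soat1 higher (0.65). In N2A soma Mylip was called higher (0.57), and in N2A neurites Apoe (0.73) and Abca1 (0.58), which carry and export cholesterol, and Mylip (0.59) were called higher. In the test of the lines' difference, 1 of the 8 was called lower in CAD than in N2A soma (Mylip) and 2 in neurites (Mylip and Abca1). In that direction 7.87% of all genes were called in soma and 6.23% in neurites. None was called with Q331K.

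On other branches of the isoprenoid pathway, Coq2, of ubiquinone synthesis, was called lower in CAD soma (-0.77) and neurites (-0.94). In all, 1 of the 9 genes was called higher and 2 lower in CAD soma, 3 higher and 3 lower in CAD neurites, 1 higher in N2A soma (Fnta, 0.42) and none in N2A neurites, where 11.2% of all genes were called higher and 11.6% lower in CAD soma, 11.8% and 13.5% in CAD neurites and 10.9% higher in N2A soma. In wild-type cells all 9 had a positive LR in CAD (5 called, where 23.7% of genes were called higher) and N2A cells (7 called, where 32.5% were). The nuclear RNAs Kcnq1ot1 (-1.53 and -2.37) and Neat1 (-1.45 and -2.93) were called lower in neurites of wild-type CAD and N2A cells, and Malat1 in N2A cells (-1.83), while none of the 3 was called in wild-type transgene cells.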
